A study of Mus musculus with 10 samples.

Results

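Of 114366 regions of accessible chromatin merged over all libraries, 455 were LMPP regions retained in IRF8-deficient MDP. They were chosen by detection alone: a peak in both lymphoid-primed multipotent progenitor (LMPP) libraries, in both libraries of monocyte-dendritic cell progenitors lacking IRF8 (IRF8KO MDP), and in neither library of wild-type (WT) MDP. Peaks of the 10 libraries on chromosomes 1 to 19 and X had been merged wherever they overlapped by at least 1 bp. Detection in long-term hematopoietic stem cells (LT-HSC) and in common dendritic cell progenitors (CDP) was not used to choose them and serves as the readout here. "Retained" stands for that rule. The cells of each library came from separate sorts, and no cell was followed from one stage to the next.

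Chromatin accessibility was measured by ATAC-seq, which reads out where a transposase can insert into DNA, in primary cells sorted from mouse bone marrow, all of strain C57BL/6. There were 5 groups of 2 libraries. The IRF8KO MDP and the WT MDP were sorted with the same markers, as cells negative for lineage markers, Sca-1 and IL-7R and positive for CD117 and CD115. The labels call the knockout cells IRF8-deficient and name no allele. The other groups were all WT. LT-HSC were negative for lineage markers, CD135 and CD48 and positive for CD117, Sca-1 and CD150. LMPP were negative for lineage markers and positive for CD117, Sca-1 and CD135. CDP were negative for lineage markers, Sca-1 and IL-7R, intermediate for CD117 and positive for CD115 and CD135. The titles name the LMPP libraries as LMPP, but their cell type field says short-term hematopoietic stem cells. The titles were followed.

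IRF8 belongs to the interferon regulatory factors, and binds DNA mainly together with partners such as PU.1. Mice without it form few dendritic cells and monocytes and accumulate neutrophils. MDP arise downstream of multipotent progenitors such as LMPP and give rise to monocytes and, through CDP, to dendritic cells. Stem cell gene loci usually close as cells enter this path.

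The libraries held 4790046 to 10166833 tags and 31325 to 69598 peaks. LT-HSC replicate 1 stood apart, with 31325 peaks and 19.3% of its tags within peaks, against 38.1% to 53.7% in the other 9. The IRF8KO MDP libraries had 50728 and 54277 peaks with 43.7% and 43.9% of tags within peaks, and the WT MDP libraries had 62130 and 64515 peaks with 51.3% and 53.7%. At Irf8 itself, 10 of 34 assigned regions had a peak in both IRF8KO MDP libraries and 16 in both WT MDP libraries, so peaks do not check the genotype. Csf1r, the gene of the sorting marker CD115, had 3 of 8 regions with a peak in both IRF8KO MDP libraries and 3 in both WT MDP libraries. Of 463 regions at stem cell genes, 132 and 143 had a peak in the IRF8KO MDP libraries, 200 and 197 in the WT MDP libraries and 283 and 295 in the LMPP libraries. Of 81 regions at neutrophil and granule genes, 45 and 49 had a peak in the IRF8KO MDP libraries, 52 and 50 in the WT MDP libraries and 25 and 25 in the LMPP libraries.

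Some retained regions lie at gene starts, and the sequence there can be shown. Promoter windows, from 250 bases before to 50 after a RefSeq start on GRCm38.p6, were used. Retained regions overlapped 23 of 32619 such windows, at 22 genes. The 4 shown first belong to the retained regions over such windows that lie nearest the top of the LMPP and IRF8KO MDP peak lists. The fifth, at Mcpt8, was chosen after its values were seen, because the only region assigned to that gene was a retained one. Capitals mark exact matches, on either strand, to 8 short motifs: ETS (GAGGAAG), the IRF repeat (GAAA at 2 places, 2 bases apart), ETS-IRF (GGAA, then GAAA 2 bases on), AP-1 (TGANTCA), C/EBP (TTGCNNCAA), RUNX (TGTGGTT), the GATA factor motif (AGATAA) and E-box (CAGCTG). Matches to different motifs may overlap.
Gm29854: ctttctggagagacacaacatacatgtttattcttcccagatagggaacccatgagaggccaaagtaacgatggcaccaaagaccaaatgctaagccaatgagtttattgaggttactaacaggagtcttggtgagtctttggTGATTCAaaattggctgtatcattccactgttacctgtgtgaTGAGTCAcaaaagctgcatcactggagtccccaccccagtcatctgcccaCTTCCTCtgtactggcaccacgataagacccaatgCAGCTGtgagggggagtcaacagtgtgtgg
Cmah: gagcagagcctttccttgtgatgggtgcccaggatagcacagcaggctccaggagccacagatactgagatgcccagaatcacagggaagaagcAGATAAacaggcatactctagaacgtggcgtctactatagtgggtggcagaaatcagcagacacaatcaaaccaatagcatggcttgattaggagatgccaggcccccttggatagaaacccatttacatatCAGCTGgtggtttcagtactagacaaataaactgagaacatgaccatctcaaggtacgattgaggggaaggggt
Ackr3: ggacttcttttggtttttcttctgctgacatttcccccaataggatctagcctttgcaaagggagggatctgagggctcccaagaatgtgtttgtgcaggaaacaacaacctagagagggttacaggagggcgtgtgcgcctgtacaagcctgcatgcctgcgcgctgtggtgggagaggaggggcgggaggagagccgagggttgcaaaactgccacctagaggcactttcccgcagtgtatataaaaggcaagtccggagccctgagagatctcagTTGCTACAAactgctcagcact
Kank4: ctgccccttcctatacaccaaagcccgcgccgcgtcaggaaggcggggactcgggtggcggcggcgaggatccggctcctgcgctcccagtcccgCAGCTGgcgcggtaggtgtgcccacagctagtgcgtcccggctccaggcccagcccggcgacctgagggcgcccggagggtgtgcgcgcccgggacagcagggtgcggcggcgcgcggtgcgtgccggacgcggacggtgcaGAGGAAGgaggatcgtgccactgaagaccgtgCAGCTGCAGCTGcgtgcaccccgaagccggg
Mcpt8: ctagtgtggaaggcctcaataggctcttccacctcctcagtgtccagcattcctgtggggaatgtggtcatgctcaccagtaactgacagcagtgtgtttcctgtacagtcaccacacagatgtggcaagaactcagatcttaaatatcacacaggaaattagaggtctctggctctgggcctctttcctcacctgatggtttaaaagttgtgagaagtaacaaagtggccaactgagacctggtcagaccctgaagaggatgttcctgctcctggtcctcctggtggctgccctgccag

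The window of Gm29854, a predicted gene, lies at chr16:7767641-7767940 of mm10 on the plus strand. It holds AP-1 letters at 2 places, the ETS letters on the other strand and 1 E-box. The retained region over it, chr16:7767480-7769476, had IRF8KO MDP peaks at list positions 51.4 and 38.4 and LMPP peaks at 89.5 and 92.6. A list position is a peak's place in its library's own list, where 100 is the first row and 0 the last. Row order was taken to follow strength, which the lists cannot show.

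The Cmah window, chr13:24414872-24415171 on the plus strand, lies inside the gene span, at an internal start. Cmah encodes the hydroxylase that makes the sialic acid Neu5Gc, and its window holds 1 GATA and 1 E-box match. Ackr3, an atypical receptor that takes up the chemokine CXCL12, has its window at chr1:90203730-90204029 on the plus strand, with 1 C/EBP match. The window of Kank4, a member of the KANK family of cytoskeletal adaptors, lies at chr4:98817488-98817787 on the minus strand and holds 1 ETS and 3 E-box matches. Mcpt8, a protease of basophils, has its window at chr14:56085148-56085447 on the minus strand, and none of the 8 motifs is in it.

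Among the 23 windows, 9 held the E-box (39.1%), 7 the ETS letters (30.4%), 4 GATA (17.4%) and 3 C/EBP (13%). The remaining motifs, both IRF motifs included, were each in 1 window (4.35%). In the 531 windows overlapped by LMPP regions that had no peak in either MDP genotype, the shares were 18.5% for the E-box, 19.2% for ETS, 10.5% for GATA and 1.69% for C/EBP. In all 32619 windows they were 16.4%, 13.4%, 11.2% and 2.09%. The IRF repeat was in 3.95% of the 531 windows and in 3.46% of all, and ETS-IRF in 2.82% and 2.73%. At Gm34150, a predicted gene, 2 windows 1 base apart hold the same ETS match, so by region the ETS letters were in 6 of 22. With 23 windows, 1 window is 4.35%, and these matches are a description of letters, not of binding.

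Detection of LMPP regions in IRF8KO MDP differed with their detection in WT MDP. Of all merged regions, 12125 (10.6%) had a peak in both LMPP libraries and in neither WT MDP library. Of these, 455 (3.75%) had a peak in both IRF8KO MDP libraries, 976 in 1 of them and 10694 in neither. The 10694 are called closed regions below and are the comparison group. Where 1 WT MDP library had a peak, 22.5% of 4668 LMPP regions were in both IRF8KO MDP libraries, and where both had one, 81.9% of 36991 were. These shares describe the choice of regions and were not tested.

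Peaks in IRF8KO MDP without a WT MDP peak lay mostly elsewhere. Over all merged regions 3073 (2.69%) had a peak in both IRF8KO MDP libraries and neither WT MDP library. They were 6.74% of the 45583 regions with no WT MDP peak. Of them, 2367 had no LMPP peak either, which is 10.0% of the 23584 regions without an LMPP or WT MDP peak. Each of those needed a peak in some other library to be in the set at all, so this share and the 3.75% have different bases.

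The IRF8KO MDP replicates shared few of these detections. Replicate 1 detected 840 of the 12125 regions and replicate 2 detected 1046. The 455 found in both were 31.8% of the 1431 found in either, against 35.0% over all regions without a WT MDP peak and 75.4% over all merged regions. Leaving out a library let in more regions: 1046 without IRF8KO MDP replicate 1, 840 without its replicate 2, 873 without WT MDP replicate 1 and 1087 without its replicate 2.

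The retained regions sat low in the IRF8KO MDP lists. Their median list position was 21.2 and 24.0 in the IRF8KO MDP libraries and 41.2 and 41.5 in the LMPP libraries. These positions refer to lists of unlike length, with 50728 and 54277 rows in IRF8KO MDP and 63349 and 64181 in LMPP. The part of list length in this gap was not tested. Closed regions had medians of 35.2 and 36.3 in the LMPP lists. Regions just outside the rule, detected in 1 IRF8KO MDP library only, had medians of 11.4 and 12.2 there. Median peak width at the retained regions was 501 bp in both IRF8KO MDP libraries and 627 and 628 bp in the LMPP libraries.

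**Figure D1:**
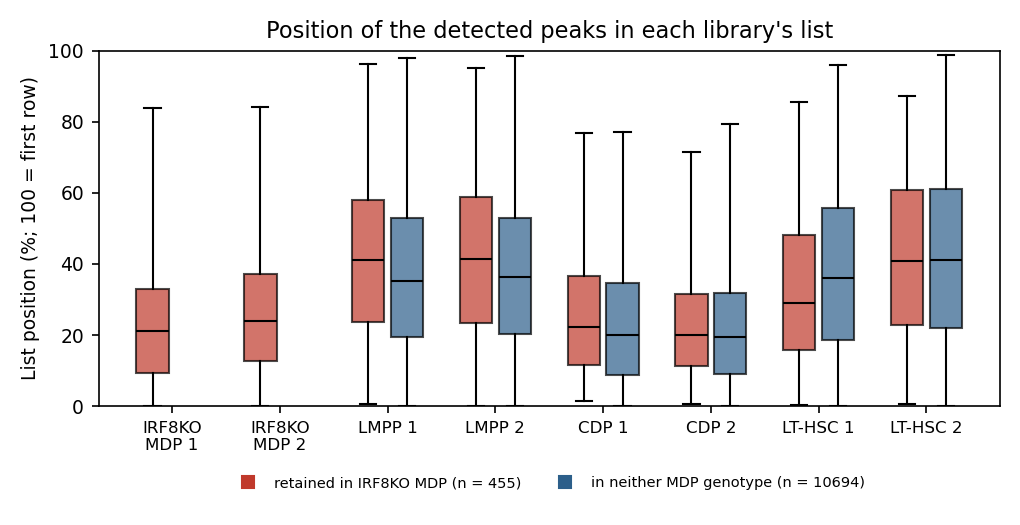
List position (%, 100 = first row) of the detected peaks in each library, for regions retained in IRF8KO MDP and for closed regions; boxes span the middle of the values with the median as a line, and whiskers reach the lowest and highest. Retained regions have medians of 21.2 and 24.0 in the IRF8KO MDP lists and 41.2 and 41.5 in the LMPP lists, and the lists differ in length. Closed regions have no IRF8KO MDP peak by rule.

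Few retained regions were prominent in every list that chose them. Only 14 lay in the upper 50% of both IRF8KO MDP lists and 136 in the upper 50% of both LMPP lists, and 405 lay in the upper 50% of neither IRF8KO MDP list. By single LMPP list, the upper 50% held 35.8% and 38.5% of retained and 28.4% and 28.9% of closed regions. By single IRF8KO MDP list it held 5.28% and 8.79% of retained regions and 50.7% and 50.6% of all merged regions detected there. IRF8KO MDP regions without an LMPP peak were not counted this way, so low positions are not shown to be particular to retained regions. The plot of list positions by library shows the lower positions of retained regions in the IRF8KO MDP lists. For 257 regions both LMPP positions were above both IRF8KO MDP positions, and for 62 the reverse held. These counts also compare positions in lists of unlike length. Over the 455 regions the positions of the IRF8KO MDP replicates had a Spearman correlation of 0.482 across regions, and those of the LMPP replicates 0.805. Over all merged regions found in both replicates the values were 0.913 for IRF8KO MDP and 0.911 for LMPP. With each list cut to its first 75%, 76 of the 455 (16.7%) still met the rule, and with all lists cut to the 31325 rows of the shortest, 14 did.

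The peaks behind a retained region were mostly the same stretch of DNA. In 447 of the 455 each of the 4 libraries had a single peak, and in 436 of these the 4 peaks shared at least 1 bp, with a median of 436 bp shared. The centres of the IRF8KO MDP and LMPP peaks were a median of 53 bp apart, and over 500 bp apart in 16 regions.

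Retained regions were detected in CDP more often than closed regions, in each CDP library. CDP replicate 1 had a peak in 112 of the 455 retained regions (24.6%) and replicate 2 in 96 (21.1%), against 11.6% and 9.46% of the 10694 closed regions. The mean was 22.9% ± 2.49 for retained and 10.5% ± 1.49 for closed regions (SD, n = 2 libraries each). Both CDP libraries had a peak in 76 retained regions (16.7%, Wilson 95% interval 13.6% to 20.4%) and in 7.02% of closed regions (6.55% to 7.52%). Across all 12125 LMPP regions without a WT MDP peak this share was 8.14%, and across all merged regions 51.6%. With the regions chosen without WT MDP replicate 1 or replicate 2 the mean CDP share of the retained regions was 37.9% and 38.3%, and with lists of equal length 14.45%. Retained regions were thus above closed regions. They were far below merged regions as a whole, but this goes with the choice of regions without a WT MDP peak. Of LMPP regions with a peak in 0, 1 and 2 WT MDP libraries, both CDP libraries detected 8.14%, 39.9% and 90.7%.

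In LT-HSC the gap was smaller. LT-HSC replicate 1 had a peak in 130 retained regions (28.6%) and replicate 2 in 246 (54.1%), against 24.5% and 50.5% of closed regions. The means were 41.3% ± 18.03 and 37.5% ± 18.4 (SD, n = 2 libraries each). Both LT-HSC libraries had a peak in 123 retained regions (27.0%, 23.2% to 31.3%) and in 23.7% of closed regions, beside 23.9% of the 12125 and 25.6% of all merged regions. The 2 LT-HSC libraries differed from each other by far more than retained regions differed from closed ones.

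**Figure D2:**
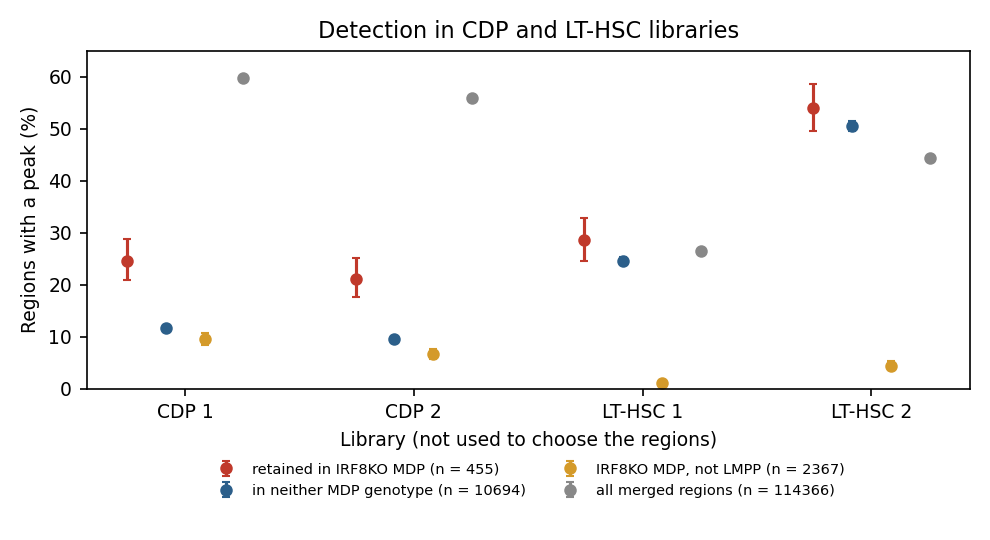
Share of regions (%) with a peak in each CDP and LT-HSC library, for regions retained in IRF8KO MDP, closed regions, regions of IRF8KO MDP without an LMPP peak, and all merged regions; bars are Wilson 95% intervals over regions. Retained regions stand at 24.6% and 21.1% in CDP, above closed regions at 11.6% and 9.46%, and near closed regions in LT-HSC.

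Retained minus closed regions came to 13.04 and 11.6 percentage points in the CDP libraries and 4.04 and 3.54 in the LT-HSC libraries, positive in 4 of 4. In an exact two-sided sign-flip permutation test over libraries, the CDP mean of 12.3 points had p = 0.5, the smallest that 2 libraries allow. The LT-HSC mean of 3.79 points likewise had an exact p of 0.5, and over all 4 libraries the mean of 8.07 points had an exact permutation p of 0.125, again the smallest possible. All 4 differences rest on the same retained and closed regions, so they are not independent of each other. No p below 0.05 can be reached with these libraries, and the intervals cover counting error over regions only. The difference moved with the WT MDP libraries: in CDP it was 23.9 points without WT MDP replicate 1, 23.7 without replicate 2 and 6.78 with lists of equal length. In LT-HSC it was 7.06 and 8.29 points without those replicates and 0.95 with the first 75% of each list.

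Regions with a peak in only 1 IRF8KO MDP library stood as high as the retained ones. CDP libraries detected 24.5% and 22.3% of those 976 regions, and LT-HSC libraries 25.4% and 56.1%. IRF8KO MDP regions without an LMPP peak stood lower throughout, at 9.51% and 6.63% in CDP and 1.098% and 4.35% in LT-HSC. The plot of detection by library shows how far the LT-HSC shares of that group fall below those of the retained regions. By rule, that group has no LMPP peak, while retained regions have one in both LMPP libraries. Of all regions with a peak in both LMPP libraries, the LT-HSC libraries detected 49.9% and 72.3%. In this gap, retention and the choice by LMPP peaks cannot be told apart.

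Fewer retained regions had a peak in CDP than in LT-HSC, and this could not be told from library spread. CDP minus LT-HSC was -18.5 percentage points for retained and -27.0 for closed regions, each with an exact two-sided permutation p of 0.33, the smallest that 2 against 2 libraries allow. It was -31.2 points without LT-HSC replicate 1 and -5.71 without replicate 2, and -7.33 and -7.82 points without WT MDP replicate 1 and 2. CDP libraries also had more peaks than LT-HSC libraries, 69598 and 65490 against 31325 and 52147, and the part of this in the difference was not tested.

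Set against prominence in LMPP, the CDP excess was present in most of the range. The 12125 regions were split into 4 equal parts by LMPP list position, and retained regions made up 3.002%, 3.530%, 3.497% and 4.980% of the parts, lowest position first. CDP replicate 1 detected 23.1%, 25.2%, 32.1% and 19.9% of the retained regions in them, against 11.99%, 11.78%, 11.84% and 10.66% of closed regions. CDP replicate 2 detected 11.0%, 26.2%, 26.4% and 19.9% of retained regions, against 9.82%, 9.64%, 9.45% and 8.92% of closed regions. In the lowest part replicate 2 thus showed nearly the same share for both.

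The LT-HSC shares followed LMPP list position in both sets of regions. LT-HSC replicate 1 detected 9.89%, 21.5%, 22.6% and 49.01% of retained regions in the 4 parts, against 10.1%, 15.3%, 25.1% and 48.8% of closed regions. LT-HSC replicate 2 detected 37.4%, 43.0%, 54.7% and 71.5% of retained regions, against 31.3%, 43.0%, 53.1% and 75.9% of closed regions. Within the parts, retained regions were above closed ones in some and below in others.

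**Figure D3:**
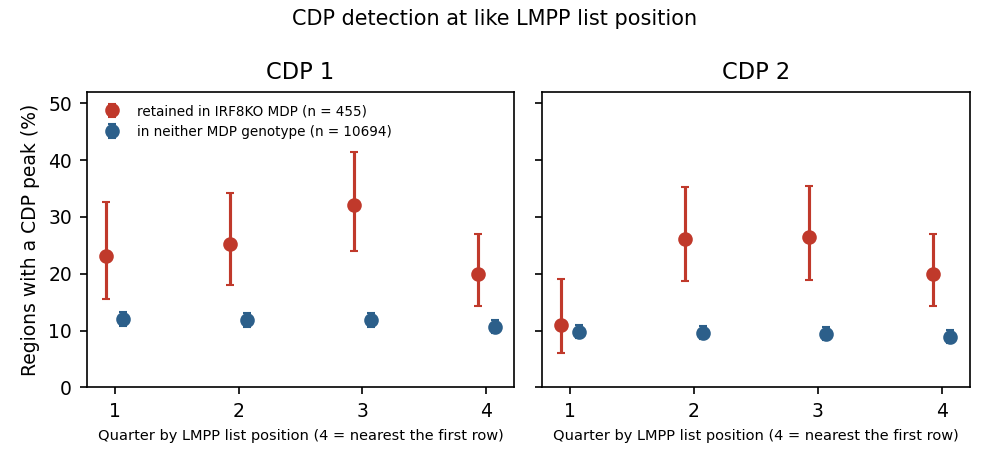
Share of regions (%) with a peak in CDP replicate 1 (left) and replicate 2 (right) by part of the LMPP list position (1 lowest, 4 nearest the first row), for retained and closed regions, with Wilson 95% intervals. Retained regions lie above closed ones in each part of replicate 1, and in replicate 2 all but the lowest part stand clearly apart (11.0% against 9.82% there).

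The 455 regions fell into several patterns over the 4 libraries that did not choose them. None of the 4 detected 140 retained regions (30.8%), against 40.4% of closed regions. In 89 (19.6%) both LT-HSC libraries and no CDP library had a peak, against 21.5% of closed regions. In 40 (8.79%) both CDP libraries and no LT-HSC library did, against 4.27%, and in 20 (4.40%) all 4 did, against 0.973%. Both CDP libraries had a peak in 16.3% (10.8% to 23.8%) of the 123 retained regions found in both LT-HSC libraries, 12.3% (7.72% to 19.1%) of the 130 found in 1 and 19.8% (14.9% to 25.8%) of the 202 found in neither. These intervals overlap, and the difference was not tested. Among closed regions the shares were 4.10%, 6.44% and 8.78%.

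**Figure D4:**
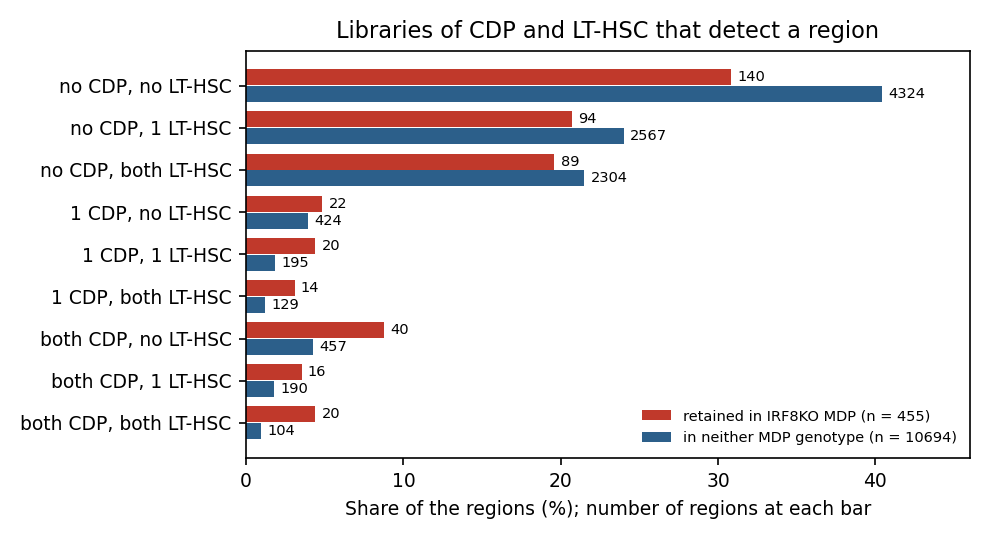
Share of regions (%) by how many CDP and LT-HSC libraries had a peak, for regions retained in IRF8KO MDP and for closed regions, with the number of regions at each bar. The pattern with no peak in any of the 4 holds 140 retained regions (30.8%) and 40.4% of closed regions, and each pattern with a CDP peak holds a larger share of the retained regions.

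The leading regions of each pattern are named by list position, averaged over the LMPP and IRF8KO MDP libraries. With peaks in both CDP and no LT-HSC library, the first lay 59.8 kb from Cdh26, a cadherin gene, at chr2:178546532-178547748 (mm10). Its positions were 50.9 and 46.5 in IRF8KO MDP, 71.8 and 77.5 in LMPP, and 52.3 and 46.7 in CDP. The region inside Bst1, at chr5:43824073-43825346, followed, with 43.0 and 14.8 in IRF8KO MDP, 80.6 and 89.3 in LMPP and 39.4 and 18.2 in CDP. Bst1 encodes CD157, a surface enzyme of stromal and myeloid cells that makes cyclic ADP-ribose. Both were higher in LMPP lists than in those of IRF8KO MDP.

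The retained region inside Cmah ran the other way. At chr13:24414588-24416900 it had positions of 72.1 and 55.1 in IRF8KO MDP, 47.9 and 51.8 in LMPP and 32.7 and 13.3 in CDP. Its peaks were 2130 and 1379 bp wide in IRF8KO MDP and 1428 and 1383 bp in LMPP. The fourth of this pattern lay inside the predicted gene Gm973, with positions of 49.4 and 25.2 in IRF8KO MDP and 64.9 and 69.4 in LMPP.

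Regions with peaks in both LT-HSC and no CDP library were led by one without a gene within 100 kb, chr3:42449496-42450277. It had positions of 57.0 and 55.8 in IRF8KO MDP, 81.4 and 79.8 in LMPP and 38.2 and 43.8 in LT-HSC. Next came a region 82.1 kb from Irs1, an adaptor of the insulin receptor, at chr1:82150387-82151529, with 43.6 and 42.7 in IRF8KO MDP and 84.5 and 87.5 in LMPP. One inside Pkhd1l1, a gene for a fibrocystin-like membrane protein, was high in stem cells and LMPP and lower in IRF8KO MDP: 22.2 and 40.9 in IRF8KO MDP, 96.4 and 95.2 in LMPP, and 84.8 and 86.9 in LT-HSC. One inside Dclk1, a doublecortin-like kinase gene, had 43.3 and 20.3 in IRF8KO MDP and 91.8 and 93.6 in LMPP.

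Among regions that all 4 CDP and LT-HSC libraries detected, the first lay inside Igf2r, the receptor that carries mannose-6-phosphate-tagged enzymes and binds IGF2. Its positions were 36.5 and 45.0 in IRF8KO MDP and 78.9 and 84.8 in LMPP. It was followed by regions inside Camk1d, a calcium/calmodulin-dependent kinase gene, inside Trio, and 22.0 kb from Pcbp1, which encodes an RNA-binding protein. The region near Pcbp1 held similar positions in the lists that chose it, with 53.8 and 55.5 in IRF8KO MDP and 50.01 and 58.95 in LMPP. With no peak in any of the 4, the leading regions lay 70.2 kb from Cdh26, inside Cdh4, another cadherin gene, at chr13:75541083-75543221 with no gene within 100 kb, and 39.9 kb from Ermard, a gene for a membrane protein of the endoplasmic reticulum. The Cdh4 region had positions of 47.3 and 46.5 in IRF8KO MDP and 69.3 and 56.8 in LMPP.

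Trio carried the retained region nearest the top of the lists overall. At chr15:27827005-27828728 it had positions of 46.04 and 48.96 in IRF8KO MDP, 91.7 and 90.5 in LMPP and 63.9 and 72.3 in LT-HSC. In CDP only replicate 1 had a peak there, at 1.30, and the nearest WT MDP peak lay 1.36 kb away. The other retained region at Trio, chr15:27795880-27797487, had positions of 22.3 and 53.6 in IRF8KO MDP and 83.7 and 78.1 in LMPP, with peaks in all 4 CDP and LT-HSC libraries. Of 51 regions assigned to Trio, 23 had a peak in both IRF8KO MDP and 24 in both WT MDP libraries, so the gene had peaks at many places in both genotypes.

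**Figure D5:**
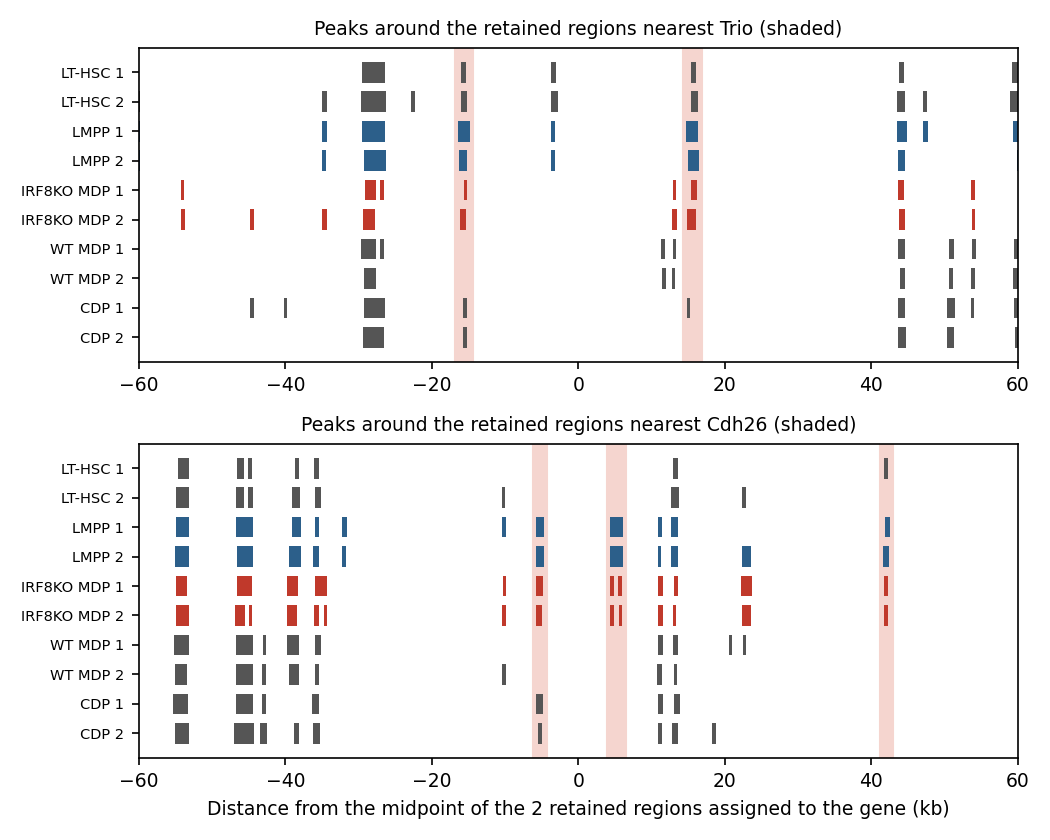
Peaks of the 10 libraries (rows) by distance (kb) from the midpoint of the 2 retained regions assigned to Trio (top) and to Cdh26 (bottom); each bar is a peak and shading marks retained regions. Shaded regions have peaks in both LMPP and both IRF8KO MDP libraries and none in WT MDP. Of the other regions within 60 kb, both MDP genotypes had a peak in 5 of 15 at Trio and in 8 of 12 at Cdh26. A region at the edge was counted with all its peaks, also those beyond the view.

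Retained regions were assigned to 390 protein-coding genes within 100 kb, and 45 of the 455 had none. No gene had more than 2, and 20 genes had 2. Of the 455, 41 had another retained region within 100 kb. These 41 formed 20 loci, of which the largest, beside Cdh26, held 3 regions. The same count was not made for closed regions, so it does not show whether retained regions are scattered or clustered. Within 60 kb of the midpoint mapped at Trio lay 15 other merged regions, of which 5 had a peak in both MDP genotypes, 3 in IRF8KO MDP only, 3 in WT MDP only and 4 in neither. At Cdh26 there were 12, of which 8 had a peak in both genotypes, none in IRF8KO MDP only, 2 in WT MDP only and 2 in neither.

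The 10 genes that the naming rule took from those with 2 retained regions were Bst1, Cdh26, Cmah, Creb1, Csgalnact1, Patj, Pdzrn3, Rnf152, Rnf19a and Slc24a2. Retained regions were 2 of 10 regions at Slc24a2, a sodium-calcium-potassium exchanger gene, and 2 of 12 at Rnf19a, a ubiquitin ligase gene. They were 2 of 15 at Creb1, the cAMP-responsive transcription factor, which had no closed region. At Csgalnact1, an enzyme of chondroitin sulfate synthesis, 2 of 23 regions were retained and 3 closed. At Patj, a polarity scaffold, and Pdzrn3, a ubiquitin ligase with PDZ domains, 2 of 17 and 2 of 19 were retained and 3 closed at each. Rnf152, a lysosomal ubiquitin ligase, had 2 retained and 2 closed among 16.

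Their list positions varied widely even within a gene. At Rnf19a, chr15:36333931-36335009 had positions of 41.7 and 56.3 in IRF8KO MDP and 20.3 and 11.8 in LMPP, while chr15:36373458-36375408 had 22.3 and 17.4 in IRF8KO MDP and 24.1 and 40.3 in LMPP. At Creb1, chr1:64445957-64447376 had 25.9 and 56.0 in IRF8KO MDP and 51.96 and 47.97 in LMPP. At Rnf152, chr1:105431754-105432855 had 3.62 and 3.81 in IRF8KO MDP, near the end of those lists, and 74.6 and 65.3 in LMPP. The first region of Rnf19a was thus nearer the top in IRF8KO MDP, and that of Rnf152 in LMPP.

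The genes of cell identity held retained regions at a share near that of all regions. Over 12 marker lists with 219 genes, of which 217 matched the annotation, 10 retained regions lay at 9 genes. They were 4.50% of the 222 LMPP regions without a WT MDP peak at these genes, against 3.75% over all 12125 such regions, so the lists stood near the background. The neutrophil and granule, monocyte and macrophage, T and NK cell, megakaryocyte and interferon response lists had none, with 0, 16, 18, 10 and 5 closed regions. In the neutrophil and granule list no LMPP region lacked a WT MDP peak, so none could be retained. Stem cell genes had 88 closed regions and 2 retained ones, which were 2.15% of the 93 LMPP regions without a WT MDP peak there.

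One of these was inside Mecom, a transcription factor gene needed for stem cell maintenance, at chr3:30455773-30456650. It had low positions in IRF8KO MDP, 9.42 and 9.73, with 47.3 and 66.1 in LMPP and 19.5 and 65.5 in LT-HSC. Of 45 regions at Mecom, 1 was retained and 20 were closed. The other lay 38.8 kb from Kit, the receptor of stem cell factor and the gene of the sorting marker CD117, at chr5:75695130-75695836. Its IRF8KO MDP positions were 0.33 and 24.0, the first almost at the end of the list, and those in LMPP were 48.6 and 53.8. Meis1, a homeobox gene of stem cells, had 10 closed and no retained regions among 36.

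Lymphoid priming genes had 3 retained and 31 closed regions, and B cell genes 2 and 13. The retained ones were 7.89% of 38 and 11.1% of 18 LMPP regions without a WT MDP peak, against 3.75% over all such regions. With 3 and 2 regions, these shares are uncertain. Both B cell regions lay inside Ebf1, the factor that commits cells to the B lineage, and had positions of 6.34 and 13.004 and of 34.3 and 1.82 in IRF8KO MDP, against 39.0 and 50.4 and 11.8 and 1.69 in LMPP. Inside Satb1, a chromatin organiser of lymphoid cells, the IRF8KO MDP positions were 4.45 and 11.5 and the LMPP positions 56.1 and 54.4. Cd44, an adhesion receptor, had 15.6 and 37.7 in IRF8KO MDP and 9.20 and 3.47 in LMPP. Runx2, which is also in the plasmacytoid dendritic cell list, had 11.1 and 11.5 in IRF8KO MDP and 10.5 and 4.71 in LMPP. None of these 5 regions had a CDP or LT-HSC peak.

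At Nfil3, a factor of conventional dendritic cell and NK cell development, the retained region chr13:53001139-53002135 stood nearer the top of the lists. It lay 18.8 kb from the gene, with positions of 41.9 and 45.3 in IRF8KO MDP and 51.0 and 64.7 in LMPP. LT-HSC replicate 2 and CDP replicate 1 also had a peak there, at 48.7 and 26.7. Car1, a carbonic anhydrase gene of the red cell lineage, had a retained region 24.6 kb away, with 45.3 and 50.1 in IRF8KO MDP and 18.8 and 9.72 in LMPP. It had no peak in CDP or LT-HSC.

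Mast cell and basophil genes had 2 retained regions, at Kit and Mcpt8, and 3 closed ones at other genes. The 2 were 40% of 5 LMPP regions without a WT MDP peak, against 3.75% over all such regions. A share of 5 regions is too small a base to read. The Mcpt8 region, chr14:56085051-56085730, covers the promoter window printed above and is the only region assigned to that gene. Its positions were 33.8 and 12.2 in IRF8KO MDP and 36.2 and 32.4 in LMPP, and no other library had a peak. Of the 120 regions at the 15 genes of the list, 52 and 64 had a peak in the IRF8KO MDP libraries, 64 and 70 in the WT MDP libraries and 56 and 55 in the LMPP libraries. Fcer1a, Prss34 and Tpsb2, defining genes of these cells, had no assigned region in any of the 10 libraries. Of the other genes, Il4 and Ms4a2 had no peak in IRF8KO MDP and had one in WT MDP, while Il13 and Mcpt8 had none in WT MDP and had one in IRF8KO MDP. The part of other cell types within the sort gate in these values was not tested.

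Of the other genes named for their role, none had a retained region. This covers Irf8, with 2 closed regions and 1 found in a single IRF8KO MDP library, Klf4, a monocyte factor with 1 closed region, and Spi1, Cebpa, Gata2, Flt3 and Csf1r, with none closed. Spi1, which encodes PU.1, had 8 regions, of which 7 had a peak in both IRF8KO MDP and 7 in both WT MDP libraries. Cebpa, a myeloid factor gene, had 7 of 11 in both libraries of either genotype. Flt3, the gene of the sorting marker CD135, had 9 of 19 in each.

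In 2 retained regions lay an annotated miRNA hairpin, and one was that of miR-223, a miRNA abundant in myeloid cells, especially neutrophils. This was noted after the values were seen, and the count has no share over closed or all merged regions beside it. The hairpin lies at chrX:96242817-96242926 within the region chrX:96242282-96243124. Both mature forms, from RefSeq on GRCm38.p6, are shown with the seed, bases 2 to 8, in capitals.
mmu-miR-223-5p: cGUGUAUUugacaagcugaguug
mmu-miR-223-3p: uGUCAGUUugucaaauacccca

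The region over miR-223 had positions of 16.4 and 0.591 in IRF8KO MDP, 33.0 and 20.8 in LMPP and 11.97 and 34.9 in CDP, with no LT-HSC peak. A WT MDP peak lay 0.863 kb away, so the neighbourhood was detected in WT MDP as well. The other hairpin, Mir7115, lies at chr11:70438255-70438318.

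In the genome, retained regions were mostly distal. Within 1 kb of a protein-coding gene end lay 25 of 455 (5.49%, 3.75% to 7.99%), against 5.40% of closed and 12.6% of all merged regions. With lists of equal length it was 8.44% of the regions then chosen. Centres inside a gene span made up 55.4% of retained, 51.9% of closed and 55.2% of all regions. A gene lay within 100 kb of 90.1% of retained and 84.9% of closed regions.

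Retained regions lay closer to WT MDP peaks than closed regions did. Within 2 kb of a WT MDP peak were 100 retained regions (22.0%, 18.4% to 26.0%), against 14.6% of closed regions, and within 10 kb 62.9% (58.3% to 67.2%), against 48.3%. The median distance was 5.86 kb for retained and 10.7 kb for closed regions. Other regions with an IRF8KO MDP peak were as close: those in 1 IRF8KO MDP library stood at 21.0% within 2 kb and 61.7% within 10 kb, and those of IRF8KO MDP without an LMPP peak at 25.4% and 70.0%. In 10 retained regions a WT MDP peak lay within 500 bp, and leaving those out left 445 regions. Median merged width was 791 bp for retained, 703 bp for closed and 752 bp for all regions.

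The 14 regions that still met the rule with all lists cut to equal length depend least on list length. This set was chosen after the values were seen. It holds the first Trio region, the one near Irs1, the Cdh26 region with CDP peaks, those at Cdh4, Ermard and Nfil3, and the region without a gene on chromosome 3. It also holds regions inside Bspry and Smco4, at Trpv6, a calcium channel gene, near Cysltr2, a leukotriene receptor gene, near Smad4, the shared mediator of TGF-beta signalling, and 2 more without a gene. In all, 5 retained regions lay in the upper 50% of all 4 lists that chose them: that on chromosome 3, one on chromosome 18 without a gene, and those of Pcbp1, Bspry and Cysltr2. The region at Bspry lies at chr4:62496621-62497484 and that near Cysltr2 at chr14:73087126-73088251.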

How the data were processed

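ATAC-seq peaks were taken from 10 deposited lists, 1 per library. The submitters' processing notes name Bowtie 1.1.2, HOMER 4.9 and the builds mm10 and GRCm38. Each library was called alone, per the file headers (500 bp size, 1000 bp between peaks, false discovery rate 0.001, 4-fold local enrichment, 1 tag per bp). A shift for the transposase offset is not stated. The score column, as deposited, is 1 in every row. Without tag counts per peak only detection could be compared, and a region near the calling threshold can be missed in a shallower or noisier library.

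Peaks on chromosomes 1 to 19 and X were merged with Python 3.11.15 and pandas 2.3.3 at 1 bp overlap. Genes (RefSeq, GRCm38.p6) were assigned as the nearest protein-coding span within 100 kb. Shares carry Wilson 95% intervals from statsmodels 0.14.6, which cover counting error over regions; neighbouring regions are not independent. Conditions, and retained with closed regions, were compared over libraries with exact permutation tests. The design text calls the WT libraries biological duplicates and no label names animals, so p-values measure the spread between libraries, which may be technical. Merging and the choice of regions were checked on simulated peak lists, and the permutation tests were not.

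The regions, marker lists and tests were chosen with earlier results of these data known. Genes were named by a rule: 10 with the most retained regions, those of the 8 highest in mean list position, the 4 highest per detection pattern, up to 4 per marker list, 10 genes of known role, and the 4 highest over promoter windows. The detection difference between the CDP replicates had a correlation of r = 0.00106 with that between the LT-HSC replicates, over 455 regions. Taken over regions, this value cannot show whether same-numbered libraries belong together. Promoter windows on chromosome 18 and genome sequence were not used here.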

Additional observations from a re-analysis of the deposited data

How the results depend on the processing

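The number of retained regions ranged from 565 to 1087 when 1 library at a time was left out of the choice, and from 363 to 533 under the other settings. With the first 75% of each list 363 regions met the rule, of which 76 were among the 455, and with lists of equal length 533 did, of which 14 were. Shorter lists drop WT MDP peaks as well as IRF8KO MDP and LMPP peaks, so other regions then meet the rule. The CDP share of 22.9% became 14.45% with lists of equal length and 26.8% when a peak had to cover at least 50% of the central 200 bp, and ranged from 21.1% to 38.3% with a library left out. The LT-HSC share of 41.3% became 60.6% with lists of equal length, and ranged from 28.6% to 54.1%. The share within 1 kb of a gene end became 8.44% with lists of equal length, and 9.67% lay within 2.5 kb. In these alternatives CDP minus LT-HSC stayed negative (-46.2 to -5.71 points) and retained minus closed stayed positive in CDP (6.78 to 23.9) and in LT-HSC (0.95 to 8.29), which the tests cannot call at this number of libraries. With the replicate number as a block, CDP minus LT-HSC was -18.5 points with an exact sign-flip permutation p of 0.5, the smallest possible. Whether the replicate numbers pair the libraries is not known. A count of peaks shared by the 4 libraries over at least 1 bp, added after seeing the data, left 436 regions. The share of tags within peaks was smaller in IRF8KO MDP than in WT MDP, and its part in what was detected there was not tested.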
